A study of Mus musculus with 6 samples.

Results

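The outer bulge (OB) is the outer cell layer of the resting hair follicle (HF) below the sebaceous gland, where quiescent hair follicle stem cells (HFSCs) reside, and 1612 barcodes were taken as OB cells here. They were chosen from 55177 barcodes with 500 to 7000 detected genes and at most 10% mitochondrial transcripts, out of 61031 barcodes in 6 single-cell libraries. A barcode was a member when it carried at least 4 transcript counts (unique molecular identifiers, UMIs) over Cd34, Krt24, Sfrp1 and Lhx2, with at least 1 from Cd34 or Krt24. Barcodes with more than 1 UMI in any of 3 sets, Cpa4 with Anxa3 and Has2, Col14a1 with Gnmt and Cpxm1, or Sncg with Gpc6 and Tspan2, were set aside. The levels of these 13 genes therefore chose the members and are given as a description only. Of the members, 142 carried exactly 4 UMIs over the first 4 genes, and 174 barcodes that met every other condition carried 3.

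Dorsal skin of male wildtype FVB mice aged 55 to 57 days was sampled at 6 points of a depilation time course, from 0 h over 4 h and 16 h to days 2, 4 and 6 (written 2 d, 4 d and 6 d), in which removal of the hair shafts drives resting HFs into growth. Each time point was 1 droplet library that mixed equal numbers of cells from 2 mice, so the mice cannot be separated and there was no replicate within a time point. No gene was deleted and no agent was given in any of these groups, the 0 h library served as the common reference for all 5 later times, and time point and library cannot be told apart. The 5 comparisons below thus share 1 control. The labels do not state if the 0 h mice were depilated just before sampling or left untreated, so what a ratio to 0 h holds of the depilation itself is not known.

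HFSCs of the OB rest for weeks between growth phases, held back by BMP signals and by FGF18, and attach to a basement membrane through integrins. When a new hair cycle begins, WNT and hedgehog signals reach the follicle base, the hair germ divides first, and bulge cells then divide and contribute the outer root sheath. CD34 is a cell-surface sialomucin, KRT24 is a type I keratin, SFRP1 is a secreted WNT inhibitor, and LHX2 is a LIM-homeodomain transcription factor that maintains the bulge.

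The kept barcodes numbered between 6925 and 12410 per library, with a median of 6309 to 10797 UMIs. Between 7 and 47 barcode sequences were shared by any pair of libraries. The members had a lower median, 5224.5 to 6840 UMIs, and their summed UMIs in time order were 1842466, 500833, 1909647, 1918973, 2401993 and 3580615. The 4 h sum came from 81 members and was the least deep, so that small differences were hardest to see there. No doublet caller was run.

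Among measures that the rule did not use, Lgr5 and Postn were more frequent in members than in basal keratinocytes, and Krt15 was common in both. Krt15, a keratin of bulge stem cells, was found in 89.6% to 98.9% of members. Lgr5, a receptor for WNT-enhancing R-spondins, was found in 31.6%, 16.0%, 20.7%, 30.5%, 28.8% and 30.7% of members in time order after each barcode was thinned to 2000 UMIs, and in 39.5% to 58.1% without thinning. In basal keratinocytes of the same libraries (at least 10 UMIs of Krt5 and Krt14, at most 1 UMI of the rule's genes and at most 3 of Krt1 and Krt10) the thinned Lgr5 share was at most 1.69%. In T cell-like immune barcodes, which should lack the gene, it was at most 0.186%, at median depths of 2125 to 2799 UMIs. The thinned share of Krt15 was 85.2% or more in members, 45.2% in basal keratinocytes at 4 h and 79.2% to 98.3% in them at the other times, and up to 27.8% in immune barcodes (0 h). Postn, a matrix protein, was found in 54% to 72.2% of thinned members, in 9.22% to 33.9% of basal keratinocytes (the most at 2 d, when members were at 60%) and in at most 1.15% of immune barcodes. Only 9 of the 1612 members had fewer than 5 UMIs of the basal keratins Krt5 and Krt14.

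At 0 h members took 3.86% of kept barcodes (267 of 6925, exact binomial 95% interval 3.41 to 4.34%). Their share had dropped to 1.06% by 4 h (81 of 7663, 0.840 to 1.31%). It then stood at 2.17% (189 of 8729, 1.87 to 2.49%) after 16 h and at 2.22% (212 of 9534, 1.94 to 2.54%) after 2 d. Samples of 4 d held 2.83% (351 of 12410, 2.54 to 3.14%) and those of 6 d 5.16% (512 of 9916, 4.74 to 5.62%). Thus the share by raw UMIs was lowest at 4 h, at 0.274 times its 0 h level, and highest at 6 d, at 1.34 times. Depth differed, with a median of 8624 UMIs per kept barcode at 0 h and 7163.5 at 6 d. After thinning to 2000 UMIs, 227 barcodes at 0 h, 46 at 4 h and 246 at 6 d met the first part of the rule. Of these, 22, 6 and 16 were set aside. Beside 6925 and 9916 kept barcodes, these counts do not put 6 d above 0 h. All intervals given here cover counting error only, since each time was 1 library. Cd34 and Krt24 themselves fell over the same times, so that a smaller share of OB cells and less of these transcripts per cell cannot be told apart. Without the 904 members holding 3 or more UMIs of any listed non-epithelial marker, a list that includes Sparc and Mitf, which members themselves carried, the ratio to 0 h turned to 1.01 at 16 h and 1.43 at 4 d. The yield of OB cells from the tissue at each time was not measured.

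**Figure D1:**
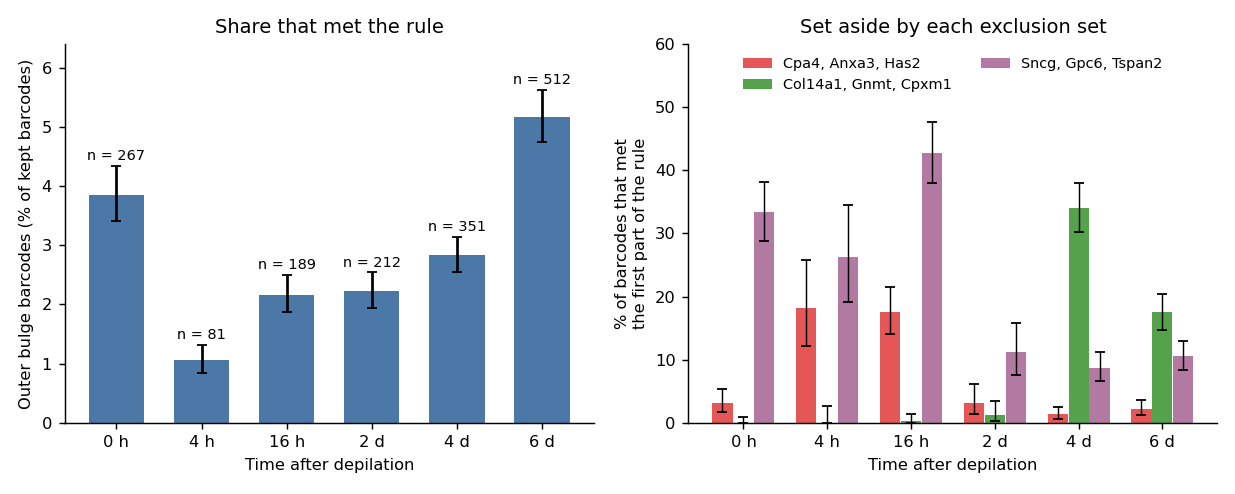
Left, share of kept barcodes that met the OB rule at each time after depilation (bars, with the number of members above). Right, percentage of barcodes meeting the first part of the rule that each exclusion set removed. Error bars are exact 95% binomial intervals. By raw UMIs, not adjusted for depth, the member share was lowest at 4 h (1.06%) and highest at 6 d (5.16%). The Col14a1 set removed barcodes almost solely at 4 d and 6 d.

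The barcodes that met the first part of the rule numbered 2546, and the exclusion sets removed a share of them that changed with time. In time order, any set removed 35.5%, 40.9%, 54.6%, 15.2%, 42.3% and 29.0%. Cpa4, Anxa3 and Has2 removed 18.2% at 4 h and 17.5% at 16 h but 1.32% to 3.20% at the other times. Has2 makes hyaluronan, and Cpa4 is a carboxypeptidase. Col14a1, Gnmt and Cpxm1 removed 34.0% of the 4 d and 17.5% of the 6 d barcodes, against 0 of 414 and 0 of 137 in the earliest samples (0 h and 4 h). Sncg, Gpc6 and Tspan2 removed 33.3%, 26.3% and 42.8% up to 16 h and 8.72% to 11.2% later. These shares follow depth as well as expression: after thinning to 2000 UMIs the share set aside by any set was 9.69%, 13%, 21.8%, 1.32%, 9.5% and 6.50% in time order.

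Cd34 and Krt24, the pair that names the population, came apart with time. Cd34 was at 570 CPM at 0 h, CPM being UMIs scaled to the usual common total of the members' sum (exact Poisson 95% interval 536 to 605), then at 399, 300, 103, 212 and 182 CPM. Krt24 stood at 743 CPM at 0 h (704 to 783) and at 473, 392, 387, 201 and 208 CPM afterwards. Cd34 was thus lowest at 2 d, while Krt24 was lowest at 4 d and 6 d. Members with both transcripts made up 67.4% (180 of 267), 67.9% (55 of 81), 49.2% (93 of 189), 26.4% (56 of 212), 25.9% (91 of 351) and 20.7% (106 of 512) in time order. At 2 d the members with Krt24 and no Cd34 were the most frequent kind, 41.5% (88 of 212), whereas at 4 d and 6 d those with Cd34 and no Krt24 led, with 59.0% and 58.2%. The other 2 genes of the rule went the opposite way at the end of the series. Sfrp1 was at 317, 190, 202, 431, 792 and 1198 CPM, and Lhx2 at 289, 222, 239, 255, 337 and 356 CPM. Since the rule asks for Cd34 or Krt24 but sums all 4 genes, a rise of Sfrp1 lets barcodes with a single Cd34 or Krt24 UMI qualify.

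**Figure D2:**
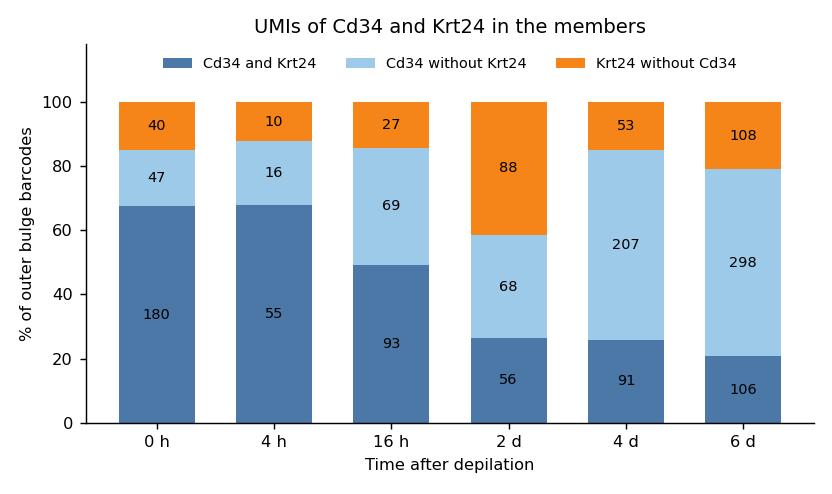
Stacked bars give the percentage of OB members carrying UMIs of Cd34 and Krt24, of Cd34 without Krt24, or of Krt24 without Cd34 at each time, with the number of members in each segment. Members with both fell from 67.4% at 0 h to 20.7% at 6 d, and at 2 d those with Krt24 alone were the most frequent.

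A small group of members carried suprabasal keratins. Krt1 and Krt10, which keratinocytes make once they leave the basal layer, summed to 20 or more UMIs in 13, 3, 17, 26, 4 and 29 members, 92 in all. These barcodes were deep, with medians of 11941 to 31420 UMIs against 5134 to 6666 in the remaining members, and held 12.5%, 13.5%, 29.4%, 31.5%, 2.88% and 17.3% of the members' UMIs. Krt10 stood at 1583, 2314, 4923, 3415, 205 and 1884 CPM over all members and at 183, 41.5, 157, 189, 109 and 157 CPM without them. Another 108 members in total, partly the same ones, had 3 or more UMIs of 22 defining markers of fibroblasts, endothelial cells, T cells, Langerhans cells, melanocytes or mast cells, the most at 2 d (34 of 212). Whether these barcodes hold more than 1 cell was not tested. Values below are for all members, and the 1428 members in neither group are called the restricted members.

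Across genes, each later sum was set against 0 h, and a gene was called when log2 of the ratio of CPM + 5 was at least 1 in size and the exact 95% Poisson intervals did not overlap. Genes with 20 CPM or more in either sum were tested, without the 13 genes of the rule, and no p-value exists for these pairs of single libraries. By 4 h 816 of 6129 genes were higher (13.3%) and 481 lower (7.85%), 21.2% in all. The 16 h sum had 444 of 6147 higher (7.22%) and 253 lower (4.12%), 11.3% in all, and the 2 d sum 357 of 6014 higher (5.94%) and 322 lower (5.35%), also 11.3%. Calls were most unequal by 4 d, with 905 of 6541 higher (13.8%) and 411 lower (6.28%), 20.1% in all, and fewest by 6 d, with 302 of 6085 higher (4.96%) and 180 lower (2.96%), 7.92% in all. The median log2 ratio over all genes tested was not 0 but 0.18, 0.19, 0.11, 0.31 and 0.17 in time order. Scaling by trimmed mean of M-values (TMM) brought it to between -0.04 and 0.01 and turned the balance of calls, which in time order became 606 higher and 697 lower, 253 and 384, 282 and 427, 485 and 683, and 224 and 269. A rise near the threshold is therefore less firm than a fall, and the median of all genes is printed with each list median below.

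The members were also set against basal keratinocytes at every time. This is a description of barcodes chosen by OB markers. By the mean log2 difference over the 6 times, the leading genes were Ccn2, a matricellular target of YAP (4.71), Lgr5 (4.27), Tbx1, a T-box factor of the bulge (3.87), Grem1, a BMP antagonist (3.83), Dkk3, a Dickkopf family member (3.61), and Il31ra, a cytokine receptor subunit (3.45). Ccn2 was at 943, 489, 347, 290, 233 and 237 CPM in members and at 3.03 to 14.3 CPM in basal keratinocytes. Il31ra was at 125, 26.0, 68.6, 34.4, 61.6 and 43.8 CPM in members and at most 0.494 CPM in basal keratinocytes. Both were highest in members at 0 h, and Ccn2 was called lower from 16 h on. Tbx1 instead was at 121, 134, 89.5, 122, 242 and 264 CPM and was called higher at 6 d, though not under TMM. Shisa2 and Fzd2, which act in WNT and FGF signal reception, also stood among the 10 genes with the largest difference, as did Krt10 and Krt1, whose UMIs came mostly from the 92 members described above.

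Cck, Angptl7, Myoc and Aspn fell within 4 h and stayed below their 0 h level. Cck, which encodes the peptide hormone cholecystokinin, was at 232 (211 to 255), 104, 14.1, 8.34, 9.16 and 1.40 CPM (0.453 to 3.26) in time order. Every later sum lay below the one at 0 h, by 2.24-fold after 4 h, 16.4-fold after 16 h and 166-fold after 6 d, and basal keratinocytes stayed at 1.29 CPM or lower. Angptl7, an angiopoietin-like secreted protein, was at 79.8, 14.0, 0.524, 4.17, 15.4 and 0.559 CPM. It was lowest at 16 h, at a count too low for a firm fold, and then partly higher again at 4 d, where it was 5.18-fold below 0 h. Myoc, which encodes myocilin, was at 70.0, 22.0, 3.14, 0.521, 15.0 and 4.47 CPM and likewise had a small second peak at 4 d. Aspn, a small leucine-rich proteoglycan, was at 73.3, 26.0, 0.524, 5.73, 7.49 and 3.35 CPM. Cck, Angptl7, Myoc and Aspn were called lower at all 5 later times. In restricted members they stood at 266, 93.1, 81.6 and 79.7 CPM at 0 h and at 1.80, 0.360, 5.40 and 4.32 CPM at 6 d. S100a4, a calcium-binding protein, kept its level longer, at 1956, 2412 and 1898 CPM up to 16 h, before 300, 568 and 236 CPM.

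**Figure D3:**
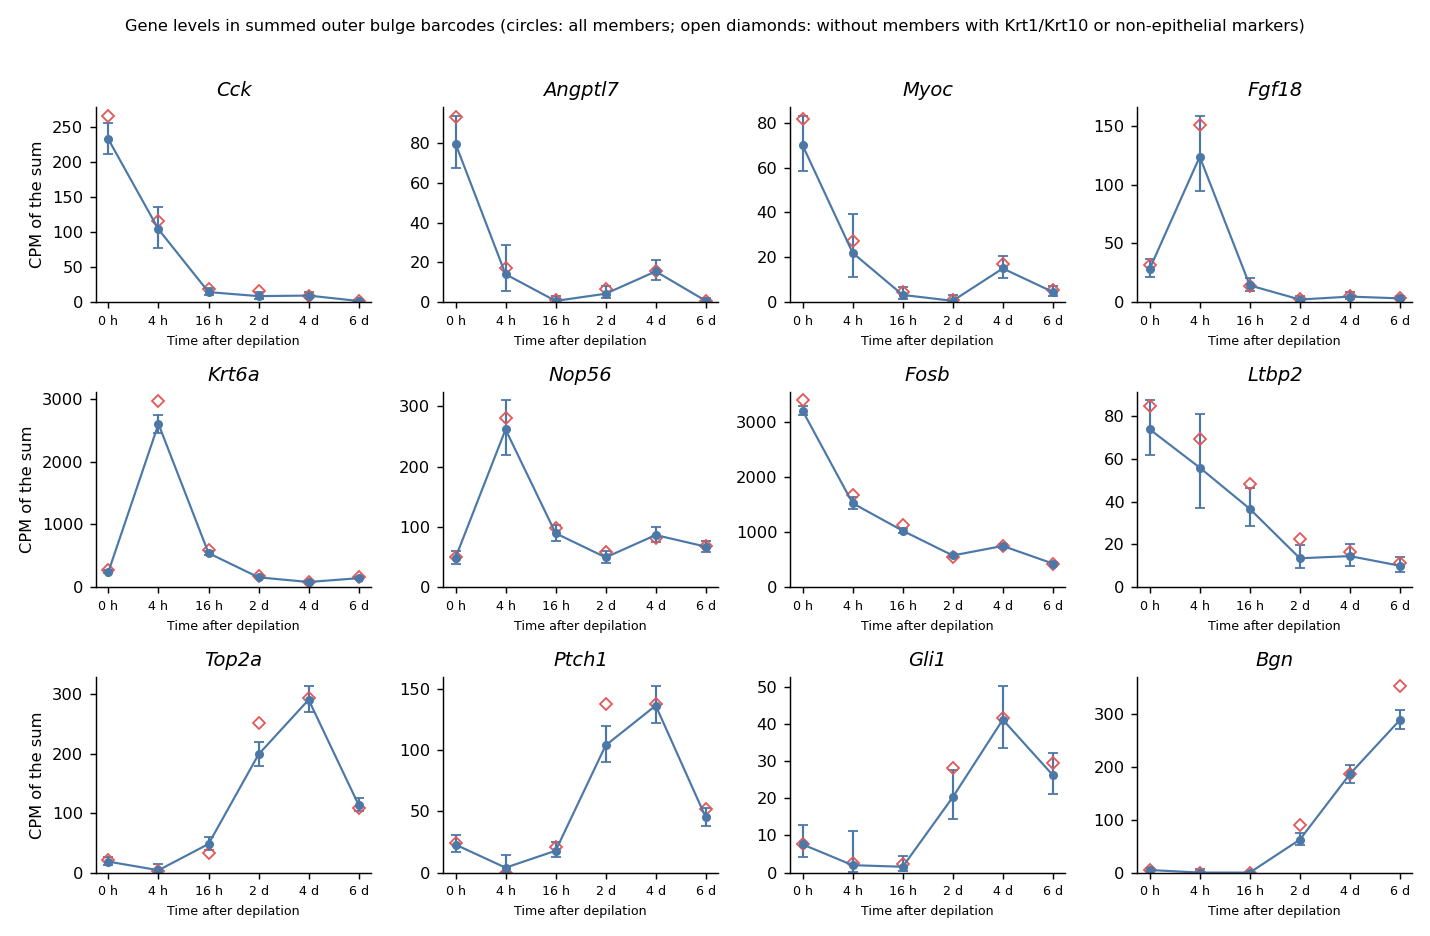
Levels of 12 genes (CPM, linear axes from 0, a scale per gene) in the summed UMIs of all members at each time, with exact 95% Poisson intervals, and open diamonds for the restricted members. Cck fell from 232 CPM at 0 h to 1.40 CPM at 6 d, Krt6a and Fgf18 peaked at 4 h, and Top2a peaked at 4 d.

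Genes of BMP, FGF18 and TGF-beta signalling were mostly lower from 2 d on, after Fgf18 and Fst had been higher at 4 h. Fgf18, the growth factor made by the bulge in telogen, was at 28.2 (21.1 to 37.0), 124 (94.9 to 159), 14.1, 2.08, 4.58 and 3.07 CPM. It was 4.39-fold higher at 4 h and 13.5-fold lower at 2 d. Fgf18 is also listed here as a marker of inner bulge and companion cells, and their part in the 4 h peak was not tested. Of 24 listed genes of BMP, FGF18 and TGF-beta signalling, 2 of 19 tested were higher and 3 lower at 4 h, and 0 higher and 8 of 19 lower at 16 h. From 2 d on the counts were 1 higher and 12 of 18 lower, then 0 and 12 of 16, then 0 and 8 of 16. In members the list summed to 4172 CPM at 0 h and to between 1758 and 4041 CPM later. In basal keratinocytes it summed to 2494 CPM at 0 h and to between 920 and 1548 CPM later, so a fall was not particular to the members. The medians of the list were -0.44, -0.81, -1.28, -1.22 and -1.02 on the log2 scale, against 0.18, 0.19, 0.11, 0.31 and 0.17 for all genes. Of all genes, 7.85%, 4.12%, 5.35%, 6.28% and 2.96% were called lower. The targets of BMP receptors were among those lower: Id1 was at 913, 607, 317, 281, 257 and 294 CPM, and Id2 at 435, 270, 138, 171, 149 and 208 CPM. Bmp2, a ligand, was at 66.2, 33.9, 20.9, 24.5, 10.4 and 15.4 CPM. The antagonists moved too. Nog was at 39.6, 51.9, 20.4, 4.69, 9.99 and 6.70 CPM, and Grem1 was at 236, 110, 160, 106, 110 and 96.6 CPM. Fst, which binds activin, was at 445 CPM at 0 h and 1372 CPM at 4 h and at 261, 322, 199 and 350 CPM later. Ltbp2, which binds microfibrils, was at 73.8, 55.9, 36.7, 13.5, 14.6 and 10.1 CPM and was called lower from 2 d on. Id1 and Id2 were thus called lower from 16 h on, Nog from 2 d on, and Grem1 at 4 h and from 2 d on, although the ratio of Grem1 at 6 d was 0.030 on the log2 scale without the members that carry any listed non-epithelial marker.

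Of 5 keratins of wounds and simple epithelia tested at 4 h, 3 were higher and 0 lower (2 higher under TMM, and 2 of 4 tested in restricted members). Of all genes, 13.3% were higher at 4 h. Krt6a, a keratin induced in wounded epidermis, was at 247 (225 to 271), 2598 (2458 to 2743), 544, 158, 84.1 and 145 CPM. It was 10.5-fold higher at 4 h and called lower at 4 d. Krt14, the basal type I keratin, was at 4961, 16530, 12198, 6965, 5677 and 6002 CPM, 3.33-fold higher at 4 h, while its partner Krt5 stayed between 3991 and 6243 CPM and was not called at any time. Krt17 was at 1182, 2474, 1377, 2750, 4444 and 3669 CPM, with 1 peak at 4 h and a larger one at 4 d. Hspb1, a small heat shock protein, was at 5179, 13815, 3224, 1362, 1540 and 4184 CPM, higher at 4 h and lower at 2 d and 4 d. In basal keratinocytes Krt6a was at 18.3 CPM at 0 h and 1160 at 4 h, whereas Hspb1 was at 2190 CPM at 0 h and 1670 at 4 h. Krt6b, at 102 CPM at 4 h and 0 UMIs at 0 h, was at 12.3 CPM in the restricted members.

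Ribosome biogenesis genes rose together at 4 h. Of 24 listed genes, all tested, 21 were higher and 0 lower at 4 h, with a list median of 1.84 on the log2 scale against 0.18 for all genes, and the counts were also 21 and 0 under TMM and in restricted members. Nop56, a box C/D snoRNP protein, was at 48.8, 262, 89.5, 49.5, 86.6 and 67.3 CPM. Rrp9, of the U3 snoRNP, was at 9.77, 87.9, 28.3, 11.5, 17.1 and 14.8 CPM, 8.99-fold higher at 4 h. By 16 h 9 of 20 tested were higher (5 under TMM), and at 2 d, 4 d and 6 d 2, 4 and 1 were. Nme1, a nucleoside diphosphate kinase, was at 58.1, 499, 333, 236, 323 and 152 CPM and was called higher at all later times. Ldha, lactate dehydrogenase, was at 188, 573, 430, 390, 405 and 329 CPM, while 2 of 14 glycolysis genes were higher at 4 h, a share near the 13.3% of all genes, and 5 of 13 were higher and 1 lower at 4 d (3 and 2 under TMM). In basal keratinocytes Nop56 was at 81.3 CPM at 0 h and 330 at 4 h, and Nme1 at 129 and 977 CPM. Cgref1 and Rin1, 2 of 5 genes the study names in its OB1 cells, were at 31.9 and 37.9 CPM at 4 h and at 0.543 and 5.97 CPM at 0 h. In basal keratinocytes they were at 31.6 and 65.7 CPM at 4 h, and since the study chose the 5 genes on these samples, they are not independent evidence of a direction. The other 3 were below 20 CPM in members at both times.

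A few integrin and basement membrane genes were called higher at 4 h, at about the rate of all genes. Of 23 integrin and basement membrane genes tested, 4 were higher at 4 h (among them Itgb1, Itgb4 and Itgb6) and 2 lower (Npnt and Egfl6), a share of higher genes close to the 13.3% of all genes. Under TMM 3 were higher, and in restricted members also 3. Itgb1 was at 162, 389, 163, 133, 165 and 183 CPM, and Itgb6 at 45.6, 134, 66.5, 55.2, 78.3 and 89.6 CPM. The matrix ligand Npnt, nephronectin, which bulge cells lay down for the arrector pili muscle, had the opposite course, at 114, 49.9, 27.2, 68.3, 187 and 330 CPM. It was called lower at 4 h and 16 h and higher at 6 d.

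Immediate early genes were highest at 0 h. Of 22 genes in the list, all tested, 0 were higher and 4 lower at 4 h, and in the later sums 1 and 5, 1 and 17, 2 and 10, and 1 and 9. Under TMM 7, 8, 17, 15 and 13 were lower. Fosb was at 3209, 1527, 1027, 578, 751 and 431 CPM, and Fos at 7731, 5151, 3039, 2178, 3712 and 2958 CPM. Fosb fell alike in basal keratinocytes, from 2742 to 493 CPM, and in immune barcodes, from 1677 to 395 CPM, so that the change was not particular to the bulge. These genes respond to tissue dissociation, and the part of handling in the result was not tested. Egr3 was at 42.3, 61.9, 93.7, 115, 96.2 and 105 CPM and was called higher from 16 h on (under TMM at 2 d and 6 d), and Egr2, at 38.5 CPM at 0 h, was called higher at 4 d with 86.2 CPM (not under TMM). Of 14 heat shock genes, 2 were higher and 3 lower at 4 h, and 1 higher and 5 lower at 2 d. Of all genes, 13.3% were higher and 7.85% lower at 4 h, and 5.94% and 5.35% at 2 d.

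Cycling markers were higher from 2 d on and peaked at 4 d, while replication genes were higher from 16 h on. Among the 10 cycling markers, 1 was tested at 4 h and was lower, and 3 of 8 tested were higher at 16 h (1 under TMM, and 0 of 5 tested in restricted members). From 2 d on 10, 10 and 9 of the 10 were higher, with 0 lower after 4 h. The list medians at 2 d, 4 d and 6 d were 2.40, 3.31 and 2.20 on the log2 scale, against 0.11, 0.31 and 0.17 for all genes. Top2a, the topoisomerase of dividing cells, was at 18.5, 3.99, 48.2, 199, 291 and 114 CPM, 15.8-fold higher at 4 d. Mki67 was at 14.1, 0 (upper limit of the interval 7.37), 34.0, 121, 236 and 108 CPM. Pclaf, a PCNA-binding factor, was at 5.43, 0, 32.5, 188, 256 and 73.2 CPM. Genes of the preceding step came up earlier. Of the list of replication genes and cyclins, 11 of 15 tested were higher at 16 h (9 under TMM, 8 in restricted members), then 13 of 18, 16 of 18 and 7 of 14, and 0 were lower. The shares of all genes higher were 7.22%, 5.94%, 13.8% and 4.96% at these times. From 0 h to 16 h this list went from 517 to 1170 CPM in members and from 848 to 1814 CPM in basal keratinocytes. The 16 h rise was thus not particular to the members. Mcm6, a subunit of the replicative helicase, was at 1.63, 12, 38.2, 41.7, 62.9 and 20.7 CPM, 23.5-fold higher at 16 h, and Ccnd1, cyclin D1, was at 78.7, 216, 233, 168, 197 and 130 CPM. Helicase subunits were thus called from 16 h and Ccnd1 from 4 h, before most mitotic markers, which were called from 2 d. Of the inhibitors of cyclin-dependent kinases, Cdkn2d was at 92.3, 12, 30.9, 50.5, 85.8 and 105 CPM, low at 4 h and 16 h, and Cdkn1a at 564, 341, 413, 189, 153 and 253 CPM, low from 2 d on.

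The promoters of these mitotic genes share 2 short elements, shown because the genes moved together. In the 300 bases from 250 before to 50 after the start (RefSeq, build GRCm38.p6), TTTGAA, the core of the cell cycle homology region, and CCAAT, the NF-Y element, were searched on both strands. They were picked out for printing after 10 motifs had been searched and the gene levels were known. Both occurred in 7 of the 9 cycling markers present in the table, Cenpa, Cenpf, Hmgb2, Mki67, Prc1, Top2a and Ube2c, and in 6.95% of all 32851 promoters. Singly, TTTGAA was in 17.9% and CCAAT in 37.4% of all promoters. Of 15 replication genes and cyclins in the table, 11 held CCAAT and 2 held TTTGAA (Cdk1 and Mcm2). The longer TTTGAAA, which contains TTTGAA, was in 1 of the 9 cycling markers and in both of those 2 genes. The 150 bases before the start are printed for 3 cycling markers and for Cdk1, the mitotic kinase, with capitals marking these elements on either strand. A match is a description of the letters and shows no binding.
Top2a (chr11:99024190-99024339, minus strand): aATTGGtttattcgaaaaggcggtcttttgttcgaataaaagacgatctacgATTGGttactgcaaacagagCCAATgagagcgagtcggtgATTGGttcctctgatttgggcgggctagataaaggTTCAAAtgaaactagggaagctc
Ube2c (chr2:164769779-164769928, plus strand): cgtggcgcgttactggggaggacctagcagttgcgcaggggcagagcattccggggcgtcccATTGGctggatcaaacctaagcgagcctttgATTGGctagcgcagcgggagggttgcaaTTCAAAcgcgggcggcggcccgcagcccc
Mki67 (chr7:135716380-135716529, minus strand): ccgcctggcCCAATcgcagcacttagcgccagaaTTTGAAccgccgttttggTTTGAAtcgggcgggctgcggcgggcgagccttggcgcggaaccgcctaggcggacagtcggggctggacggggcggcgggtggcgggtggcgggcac
Cdk1 (chr10:69352913-69353062, minus strand): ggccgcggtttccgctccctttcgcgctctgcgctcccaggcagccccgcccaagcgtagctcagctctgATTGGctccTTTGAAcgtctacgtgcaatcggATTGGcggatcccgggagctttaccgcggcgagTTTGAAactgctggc

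Counted per barcode, 12.4% of members were cycling at 0 h (33 of 266, at least 2 UMIs of the 10 markers after thinning to 2000 UMIs). In the later libraries the share was 2.47% (2 of 81), 10.1% (19 of 188), 25.7% (54 of 210), 36.8% (124 of 337) and 17.9% (91 of 508). Without thinning it was 40.4%, 11.1%, 51.9%, 48.6%, 52.1% and 42.0%. Basal keratinocytes had thinned shares of 22.1%, 7.31%, 33.4%, 30.9%, 30.3% and 29.7%. Both populations were lowest at 4 h, but at 16 h the basal keratinocytes were at 33.4% and the members at 10.1%. Within the members at 4 d, 44.0% of those with Cd34 and no Krt24 were cycling, 20.9% of those with both and 35.3% of those with Krt24 alone. Of the barcodes set aside by Col14a1, Gnmt and Cpxm1, 62.3% were cycling at 4 d and 42.9% at 6 d. In those barcodes Krt24 was at 6.44 and 25 CPM, so the exclusion removed barcodes that were lower in Krt24 and more often cycling.

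**Figure D4:**
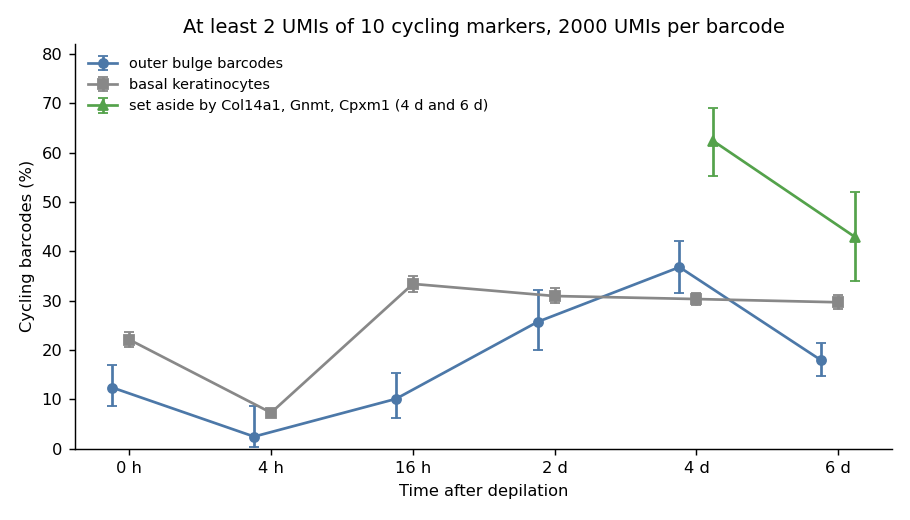
Share of barcodes with at least 2 UMIs of 10 cycling markers after thinning to 2000 UMIs, with exact 95% binomial intervals, in members and in basal keratinocytes at each time and, at 4 d and 6 d, in barcodes set aside by the Col14a1 set. Members went from 2.47% at 4 h to 36.8% at 4 d, while basal keratinocytes were already at 33.4% at 16 h.

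Hedgehog targets rose with the mitotic genes. Ptch1, the hedgehog receptor and a target of the pathway, was at 22.8 (16.4 to 30.8), 3.99, 17.8, 104, 136 (122 to 152) and 45.0 CPM. It was called lower at 4 h and higher at 2 d and 4 d. Gli1, the other common target, was at 7.6, 2.00, 1.57, 20.3, 41.2 and 26.3 CPM and was called higher from 2 d on (under TMM not at 2 d), 5.42-fold at 4 d. Restricted members had Ptch1 at 138 and 137 CPM and Gli1 at 28.1 and 41.8 CPM at 2 d and 4 d. Immune barcodes also held Ptch1, at 15.3 to 43.2 CPM. Shh, the ligand, had 0 UMIs in members at 5 of the 6 times and was at 1.67 CPM at 4 d. Of the 12 listed genes, 3 of 8 tested were higher and 1 lower at 2 d (1 and 2 under TMM), and 2 of 8 were higher and 0 lower at 4 d. Of all genes, 5.94% were higher at 2 d and 13.8% at 4 d. The list counts at 2 d thus depend on the scaling.

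Of WNT signalling genes, 2 of 17, 2 of 17, 2 of 18, 4 of 17 and 1 of 18 tested were called in either direction in time order, beside 21.2%, 11.3%, 11.3%, 20.1% and 7.92% of all genes. Between 0 and 2 were higher and between 0 and 2 lower at each time. The list medians were -0.42, -0.12, 0.12, 0.07 and 0.03, against 0.18, 0.19, 0.11, 0.31 and 0.17 for all genes. Wnt10a, a ligand, was at 53.7, 150, 81.7, 51.6, 44.5 and 56.1 CPM, called higher only at 4 h. Lgr4, a homologue of Lgr5, was at 44.5, 31.9, 32.5, 72.4, 120 and 112 CPM and called higher at 4 d and 6 d. Lgr5 was at 226 CPM at 0 h (205 to 249) and at 112, 93.2, 156, 149 and 163 CPM, called lower at 16 h. That call was lost in restricted members, and the log2 ratio turned to 0.29 without the members that carry any listed non-epithelial marker. Some genes of the list named bulge transcription factors were lower, mainly at 4 h. Of 17 listed, 14 were tested at 4 h, of which 6 were lower and 0 higher (7 lower under TMM), beside 7.85% of all genes lower. The 6 were Tcf7l2, Foxp1, Nfib, Klf5, Gata3 and Zfp36l2. Zfp36l2 is not a transcription factor, and Gata3 is also listed here as an inner root sheath marker. The list median was -0.71 on the log2 scale, against 0.18 for all genes. At the later times 14 or 15 were tested, and 2, 1, 2 and 0 were lower. Sox9 was at 400, 525, 302, 433, 517 and 759 CPM and Nfatc1 at 94.4, 97.8, 78.5, 80.3, 65.4 and 103 CPM, and neither was called. Nfib was at 1217, 509, 735, 798, 1063 and 1163 CPM, low at 4 h and back at 6 d, and Foxp1 was at 344, 148, 163, 145, 186 and 191 CPM.

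Bgn and Edn2, which encode secreted products, rose in the late members. Bgn, the proteoglycan biglycan, was at 4.88 CPM at 0 h (9 UMIs), had 0 UMIs at 4 h and 16 h, and stood at 62.5, 187 and 290 CPM (272 to 308) from 2 d on. It was 59.3-fold higher at 6 d, with 353 CPM in restricted members and 13.4 CPM in basal keratinocytes. Edn2, endothelin 2, was at 0.543 CPM at 0 h (1 UMI), then 5.99, 3.67, 9.90, 41.2 and 53.9 CPM, and was called higher at 4 d and 6 d. Shisa2 was at 114, 69.9, 66.5, 155, 212 and 286 CPM. Ifi27l2a, an interferon-induced gene, was at 15.7, 5.99, 14.1, 57.3, 63.3 and 199 CPM, and basal keratinocytes rose to 272 CPM at 6 d as well. Postn went the other way, from 1175 CPM at 0 h to 538 and 522 CPM at 4 d and 6 d, and was called lower at both. Bgn, Edn2 and Shisa2 stayed at 13.6 CPM or lower in basal keratinocytes at every time.

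BCL-2 family genes, which set the threshold for apoptosis, were called most often at 4 h. Of 20 genes, 8 were tested, with 2 higher and 3 lower at 4 h (1 and 3 under TMM), beside 21.2% of all genes called in either direction. Later 0 and 2, 0 and 2, 1 and 1, and 0 and 1 were called. Mcl1, the survival factor at the centre of the study, was at 331 CPM at 0 h (305 to 358) and at 298, 227, 217, 179 and 191 CPM later. Its later levels were below 0 h at every time and its interval at 4 h overlapped the one at 0 h, but none reached the fold for a call. Bak1, a pore-forming member, was at 3.26, 3.99, 12, 10.4, 13.3 and 11.7 CPM, too low to be tested. Bax, the other pore former, was at 63.0, 172, 117, 88.6, 148 and 112 CPM, called higher at 4 h and 4 d, and under TMM at 4 h but not at 4 d. Bbc3, the BH3-only protein PUMA, was at 52.1, 14.0, 9.43, 7.30, 11.7 and 31.0 CPM, called lower at 4 h to 4 d. Bok was at 308, 649, 274, 119, 171 and 125 CPM, higher at 4 h (not under TMM) and lower at 2 d and 6 d. Members and basal keratinocytes shared the fall of Bbc3, which was at 39.8 CPM at 0 h and 5.58 at 4 h in the latter.

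P53 and its core targets, 13 of 20 tested, had 2 higher and 2 lower at 4 h, and later 1 and 1, 0 and 1, 1 and 2, and 0 and 1. Of all genes, 21.2%, 11.3%, 11.3%, 20.1% and 7.92% were called in either direction. In restricted members the counts were 2 and 2, 1 and 1, 1 and 1, 3 and 2 (14 tested), and 1 and 1 (14 tested). Under TMM they were 2 and 2, 1 and 1, 0 and 2, 0 and 3, and 0 and 2. Trp53 was at 64.6, 102, 83.8, 101, 134 and 84.3 CPM and was not called. Aen, an exonuclease, was at 10.3, 71.9, 31.9, 20.3, 27.1 and 23.2 CPM, while Trp53inp1 was at 90.1, 5.99, 28.8, 44.3, 30.4 and 44.7 CPM. The 2 targets thus moved in opposite directions at 4 h. Mismatch repair genes rose with replication from 16 h on, with 1 of 6, 3 of 15, 5 of 13, 13 of 16 and 2 of 12 tested higher in time order and 0 lower. Of all genes, 13.3%, 7.22%, 5.94%, 13.8% and 4.96% were higher, so the 4 h share was near that of all genes. The mismatch repair list holds replication proteins such as Pcna, Rfc and Rpa subunits and Lig1. By 16 h its sum went from 364 to 656 CPM in members and from 413 to 937 CPM in basal keratinocytes. Msh6, a recognition factor, was called higher at 4 h, though not under TMM, and at 4 d. At 4 d 5 of 9 tested ERBB genes were lower and 1 higher, beside 6.28% of all genes lower and 13.8% higher. Those lower were the ligands Areg, Hbegf, Epgn and Nrg1, and Errfi1, which is not a ligand. The ERBB list summed to 793 CPM at 0 h and 331 CPM at 4 d in members. It fell in basal keratinocytes as well, from 1065 to 643 CPM. Hbegf was at 360, 280, 186, 167, 74.5 and 123 CPM, whereas the receptor Egfr stayed between 73.0 and 90.5 CPM. Of the Notch list, Hes1 was at 472, 174, 229, 385, 274 and 649 CPM, called lower at 4 h and 16 h.

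**Figure D5:**
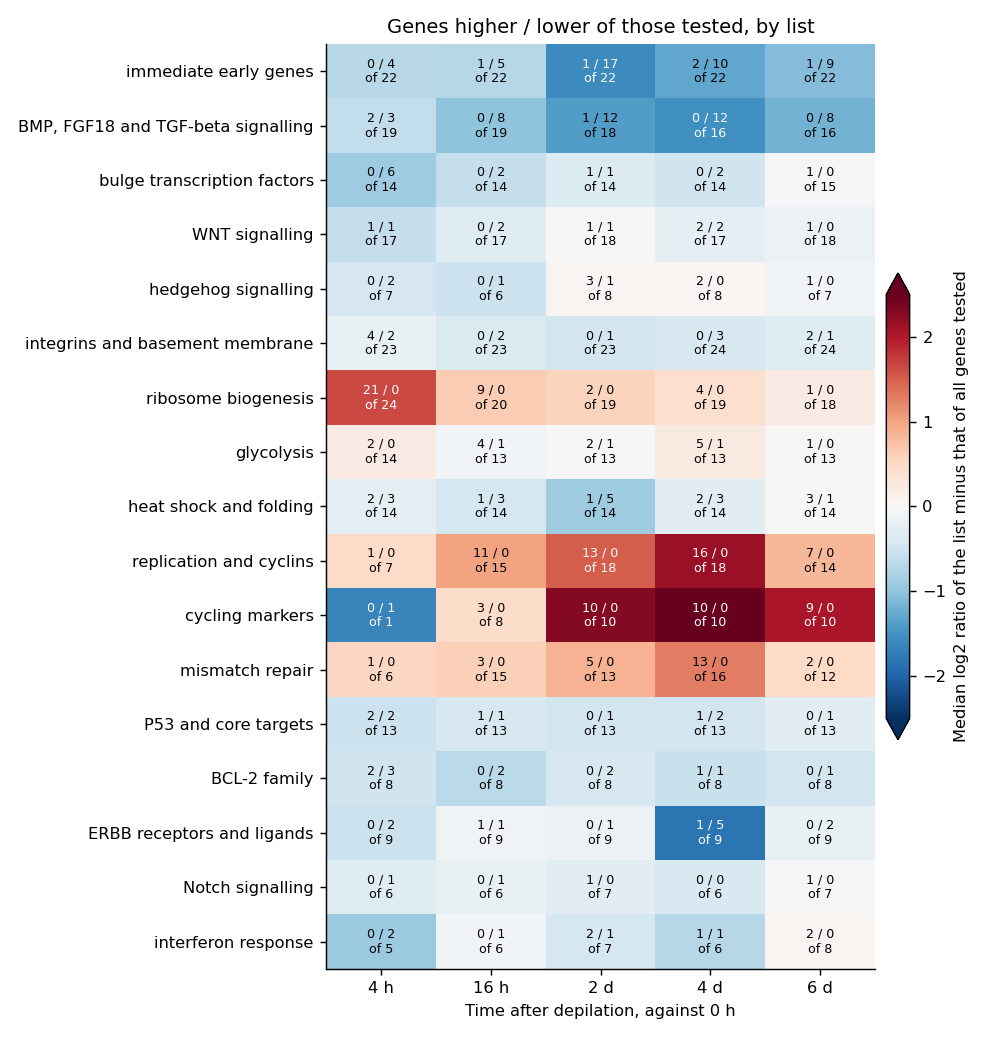
Median log2 ratio of each gene list against 0 h minus the median over all genes tested, at the 5 later times as colour, with the genes higher and lower of those tested written in each cell. Ribosome biogenesis stood out at 4 h (list median 1.84), cycling markers at 4 d (3.31), and BMP, FGF18 and TGF-beta genes lay below the median of all genes from 4 h on.

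Transcripts of other cell types moved with time too. Of 5 inner bulge and companion markers tested at 4 h, 3 were higher (Krt6a, Krt6b and Fgf18) and 0 lower. The list summed to 665 CPM at 0 h and 3227 CPM at 4 h in members, and to 256 and 1223 CPM in basal keratinocytes. The part of inner bulge or companion cells in these rises was not tested. Of 8 upper follicle markers, 4 of 7, 5 of 7, 6 of 8 and 5 of 7 tested were higher from 16 h on. Of all genes, 7.22%, 5.94%, 13.8% and 4.96% were. The upper follicle list summed to 1712 CPM at 0 h and 8426 CPM at 4 d in members, and to 2053 and 14617 CPM in basal keratinocytes. Krt79 was at 30.9, 0, 331, 146, 552 and 359 CPM, yet at 4 d its thinned share was 13.6% in members and 13.4% in immune barcodes. Cst6 was at 165, 85.9, 488, 508, 2845 and 1658 CPM, and its thinned share of 29.7% in members at 4 d lay below the 36.0% in immune barcodes. Neither 4 d share is read as expression in members. At 6 d Krt79 was found in 10.4% of thinned members (7.91 to 13.4%) and in 7.57% of immune barcodes (upper limit 11.1%). At 16 h and 2 d it was in 2.13% and 9.05% of members and in 6.13% and 14.3% of immune barcodes. Cst6 was in 15.4%, 22.9% and 30.5% of members at 16 h, 2 d and 6 d, and in 8.43%, 38.4% and 44.8% of immune barcodes. The part of free RNA in these rises was not tested. Lor, a cornified envelope protein, was at 418, 14.0, 22.0, 8.86, 12.9 and 580 CPM in members and at 8812, 52.8, 80.8, 249, 1565 and 14005 CPM in immune barcodes, and Flg2, Wfdc21 and Lce1m went the same way. Their falls at 4 h to 4 d are therefore not given as changes of the bulge. The 8 fibroblast markers summed to 214 to 638 CPM in members at the other times and 1019 CPM at 4 d, with Pdgfra at 0 UMIs at all 6 times. Of them, 4 of 5 tested were higher at 4 d and 0 higher in restricted members, where Col3a1 went from 110 CPM to 0 UMIs. The T cell markers summed to 28.8 to 141 CPM and the melanocyte markers to 9.98 to 151 CPM. T cell calls at 2 d and 4 d (2 of 3 tested each) and melanocyte calls (1 of 2 and 2 of 3 tested) were also 0 in restricted members. Restricted members were chosen by low UMIs of defining markers, among them Col1a1, Col3a1, Dcn, Cd3e, Dct and Pmel. The loss of the fibroblast, T cell and melanocyte calls was therefore largely set by that choice and is not an independent result. Of the sebaceous lipid genes, 4 of 6, 4 of 6, 6 of 7 and 4 of 6 tested were higher from 16 h on, with 2, 4, 6 and 3 under TMM and 2, 4, 6 and 5 in restricted members. The sebaceous list summed to 338 CPM at 0 h and 2185 CPM at 4 d in members. It rose in basal keratinocytes as well, from 254 to 5152 CPM, so the rise was not particular to the members. Mitf and Sparc, listed as markers of melanocytes and fibroblasts, were present in members themselves and fell, Mitf from 97.7 CPM at 0 h to 9.98 at 4 h and Sparc from 608 to 312 CPM.

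The time course over all 6 sums was tested with a spline of the hours (3 degrees of freedom, 2 residual) in edgeR. Of 10267 genes, 1 was called (0.00974%), with 672 at an unadjusted p under 0.05. The gene was Cck, with an adjusted p of 0.02416 from edgeR's quasi-likelihood test, and it kept its call whichever of the 6 libraries was dropped. The number of genes called by edgeR rested on single libraries: with 0 h, 4 h or 16 h dropped it was 1013, 746 and 2, and with 2 d, 4 d or 6 d dropped 56, 24 and 130. With log2 of the hours + 1 in place of the hours, 341 genes were called, among them Cck (adjusted p = 0.01762, edgeR), Bgn (2.597e-05), Fgf18 (0.0008435), Top2a (0.0008684), Ptch1 (0.002027) and Npnt (0.002027). Fosb (0.002578), Ltbp2 (0.003457), Krt6a (0.001851) and Gli1 (0.004479) were also called by edgeR on that scale. Angptl7 and Myoc, with their partial return at 4 d, and Aspn were not called by edgeR on that scale (adjusted p = 0.6279, 0.4451 and 0.2357). Each time being 1 library, the spread in this fit is the distance of the 6 sums from a smooth curve and holds no estimate of the variation between mice.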

How the data were processed

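Dorsal skin cells were profiled with the 10x Chromium system in 6 libraries, 1 per time point. Per the submitters' notes and the study's methods, the authors aligned the reads to mm10 with Cell Ranger 6.1.2 and deposited the filtered matrices of raw UMI counts per gene and barcode, which were used as deposited. No doublet caller was run. Members were chosen by UMI counts, and the genes, lists and the rule were chosen with earlier results of these data known. Member UMIs were summed per library, and levels are CPM of that sum, with exact Poisson 95% intervals (scipy 1.17.1) that cover counting error only. Fold calls used a pseudocount of 5 CPM, a minimum of 20 CPM, a log2 ratio of 1 and intervals that did not overlap. Named genes were the 6 markers, up to 4 of each list with the largest log2 ratio at any time, the 5 highest and 5 lowest at each time, genes called over the time course, and the 10 highest beside basal keratinocytes, and the others (such as Id1, Fst, Fos, Egr2, Mcl1, Sox9, Lgr4 and Krt79) were named after their values were seen. Time courses were fitted with edgeR 4.0.16 (glmQLFit, robust, TMM, filterByExpr, Benjamini-Hochberg adjustment at 0.05) in R 4.3.3, and DESeq2 1.42.0 was an alternative. Both scripts were tested on simulated data. The members' sums held 500833 to 3580615 UMIs. Promoters were read from a RefSeq table (GRCm38.p6).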

Additional observations from a re-analysis of the deposited data

How the results depend on the processing

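No paired analysis was possible because each time point had 1 library, with the cells of both mice mixed. Of the values recomputed for whole comparisons under each alternative, 156 stayed close to the reported one, 80 moved and 2 reversed, and of those for single genes 1154 stayed, 682 moved and 4 reversed. The causes were not tested. Member share relative to 0 h was 0.797 at 16 h and 0.439 at 2 d with no exclusion sets, and 0.457, 0.890 and 1.59 at 2 d, 4 d and 6 d with at most 5% mitochondrial UMIs. Leaving out members with 3 or more UMIs of any listed non-epithelial marker, 904 of 1612 including most at 0 h, gave 0.581, 1.01, 0.820, 1.43 and 2.45 in time order, which reversed the direction at 16 h and 4 d. Restricted members gave 0.454 at 2 d (chosen after seeing the data). Genes called at 4 h numbered 860 under the non-epithelial marker alternative and 678 with members thinned to 2000 UMIs (also added). A pseudocount of 20 CPM gave 699, 272, 332, 702 and 241 calls, and a minimum of 50 CPM gave 851, 437, 403, 843 and 288. Gene ratios that reversed were 4: Lgr5 at 16 h to 0.29 and Grem1 at 6 d to 0.030 without the members that carry non-epithelial markers, and Sprr1b at 16 h to -1.36 and -0.23. In the edgeR time course, 1 gene was called, against 341 with log2(hours + 1), 208 with ranks (189 called in both of these), 132 with DESeq2, 215 with every gene of at least 1 count, 26 at 6 or more UMIs, 14 with no exclusion sets, 2 at 6000 detected genes, 9 and 12 without members with non-epithelial markers or with Krt1 and Krt10, 10 in restricted members, 3 with 81 members per library, 34 with thinned members, and 0 with a linear trend (635 at an unadjusted p under 0.05). Leaving out 1 library gave 2 to 1013. Cycling shares in time order were 40.4, 11.1, 51.9, 48.6, 52.1 and 42.0% not thinned, 40.6, 19.8, 37.8, 47.1, 55.5 and 41.3% at 1 or more UMIs, 1.5, 0, 3.19, 19.5, 27.9 and 10.8% at 3 or more, and 24.7, 12.3, 25.6, 42.1, 56.2 and 32.4% thinned to 4000. They were 17.4% at 0 h without non-epithelial markers, 32.5% at 2 d with 5% mitochondrial UMIs, and 44.8% and 22.7% at 4 d and 6 d with no exclusion sets. Barcodes set aside were 61.4, 71.5, 77.6, 34.0, 67.4 and 57.8% when 0 UMIs were allowed, and 9.69, 13, 21.8, 1.32, 9.5 and 6.50% after thinning. The 4 h sum, 500833 UMIs from 81 members, limits what can be seen at that time.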
